A study of Saccharomyces cerevisiae with 3 samples.

Results

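Fatty acid oxidation and peroxisome biogenesis were examined through 42 genes of the budding yeast Saccharomyces cerevisiae, out of 5656 genes with a signal. They were picked out by gene symbol, through the platform's pairing of probe sets with genes, a rule that reads no measured value. They comprise 16 oxidation genes (enzymes and transporters of fatty acid breakdown), 24 peroxins (proteins that build peroxisomes and import their contents) and the 2 regulators PIP2 and OAF1. Transcript signals came from 1 group of 3 independent steady-state chemostat cultures, each hybridized to its own Affymetrix array. Glucose limited growth in all 3, with a feed of 7.5 g per litre glucose, 5.0 g per litre ammonium sulphate and 4.5 mg per litre zinc sulphate heptahydrate; cultures were held at 30 °C, pH 5.0 and a dilution rate of 0.10 per h, with dissolved oxygen over 80% of saturation with air. The sources used here give neither the strain nor its genotype. Since there is 1 group, conditions were not contrasted and p-values are not given. The design implies a pair of questions for these genes, namely which of them gave signal under this regime and how closely the 3 cultures matched.

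In yeast, fatty acids are broken down by beta-oxidation in peroxisomes only, unlike in mammals, where mitochondria share the task. The acetyl-CoA that results feeds the glyoxylate cycle or is carried to mitochondria as acetylcarnitine. Genes of the pathway are known to be repressed by glucose and switched on by fatty acids such as oleate, through the heterodimer of Pip2 and Oaf1 together with Adr1. Peroxins divide into receptors that carry proteins to the peroxisome, a docking complex, ubiquitin ligases and an ATPase that recycle the receptors, and membrane proteins that set peroxisome number and size.

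Values are deposited probe set signals on a linear scale. The arrays did not share that scale, with a median gene signal of 54.7 in culture 1, 127 in culture 2 and 96.7 in culture 3, so every SD of a signal below contains an array-wide difference. Genes whose 3-culture mean fell below the 30th percentile of all genes (48.3) are referred to as dim, and those above the 90th (589.6) as bright. Brightness is a property of a probe set and does not order genes by transcript number. The sense-strand controls, whose probes match no labelled transcript, gave up to 26.3, and a signal no higher than this can be nonspecific. As checks of the growth condition, the glucose-repressed alcohol dehydrogenase gene ADH2 and the high-affinity hexose transporter gene HXT7 read 4931 ± 1178 and 3386 ± 948 (mean ± SD, n = 3 throughout), while HXT1, a transporter gene of glucose excess, and ANB1, a gene of low oxygen, read 13.6 ± 7.62 and 21.1 ± 11.9. DAN1 and TIR1, also genes of low oxygen, did not read alike. DAN1 was dim at 18.8 ± 5.12, while TIR1 lay between the limits at 158 ± 76.2, at percentile 65.7 of all genes. The probe set of HXT7 can also bind transcripts of near-identical family members.

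The oxidation genes were mostly well above the dim limit, while the share of dim peroxins was near that of all genes. Of 16 oxidation genes 6 were bright, 9 lay between the limits and 1 was dim. Of 24 peroxins 2 were bright, 14 lay between and 8 were dim, and neither regulator was bright or dim. By construction 10% of all genes are bright and 30% are dim. The median mean signal was 354 over the oxidation genes, 72.3 over the peroxins and 93.9 over all genes. These medians describe the probe sets of each list and were not tested.

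**Figure D1:**
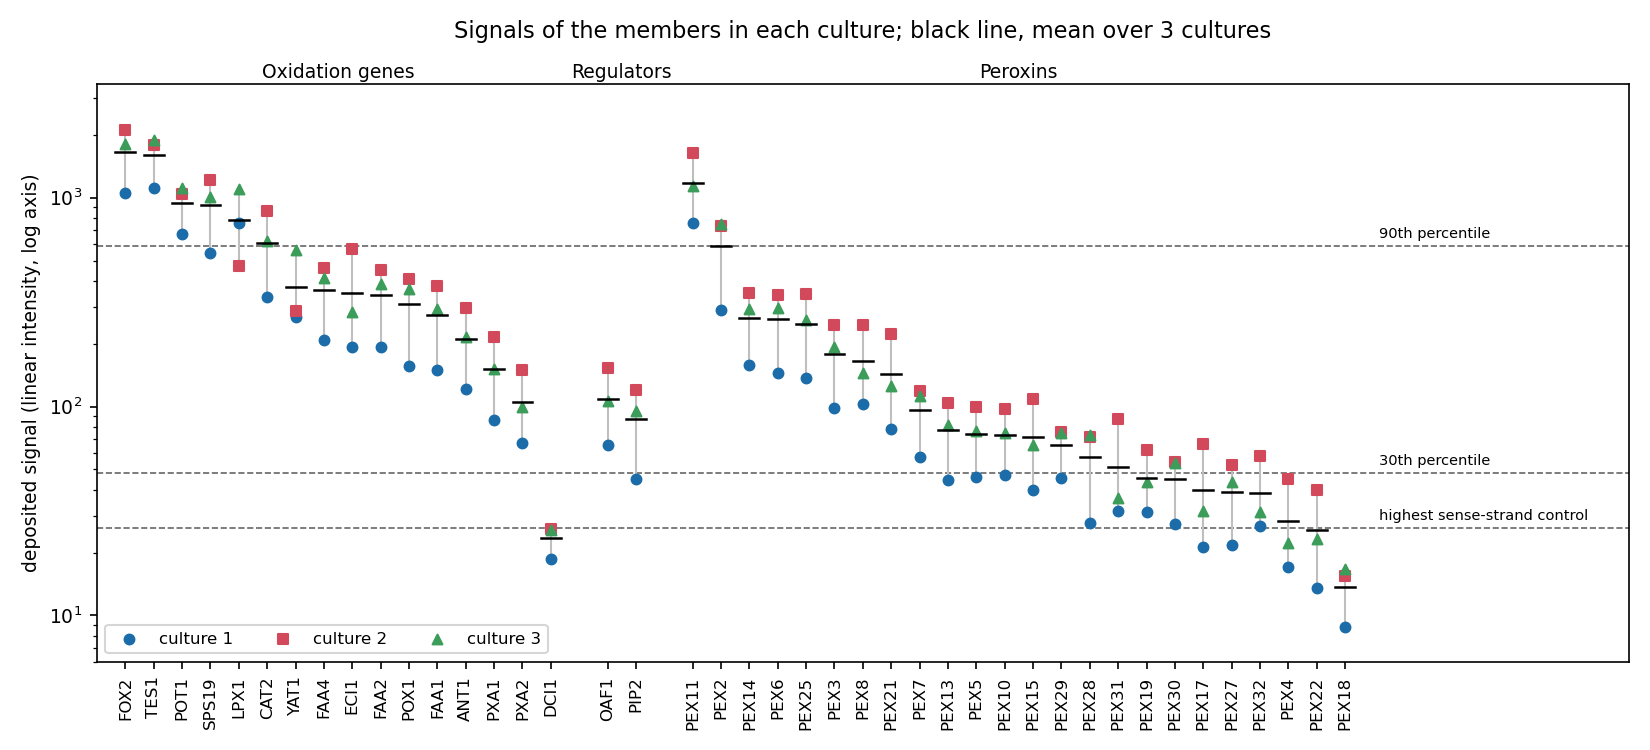
Deposited signal of each of the 42 members in culture 1, 2 and 3 (points, log axis), with the mean over the cultures as a black line and dashed lines at the bright limit (589.6), the dim limit (48.3) and the highest sense-strand control (26.3). Culture 1 is the lowest of the 3 for 41 members (and for 94.2% of all genes), the exception being LPX1, and the oxidation genes reach down to the dim zone with DCI1 alone.

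The 3 enzymes that carry out the core steps of beta-oxidation all gave clear signal. FOX2 (YKR009C), the multifunctional enzyme with hydratase and dehydrogenase activity, read 1058, 2104 and 1817 in cultures 1, 2 and 3, with a mean of 1659.9 ± 541, the highest of the 42. POT1 (YIL160C), the ketoacyl-CoA thiolase that releases acetyl-CoA, read 671, 1046 and 1110.3 in cultures 1, 2 and 3. Both were bright by their mean and lowest on the dimmest array, that of culture 1. POX1 (YGL205W), the acyl-CoA oxidase that opens the pathway and produces hydrogen peroxide, read 156, 407 and 364 in cultures 1, 2 and 3 and lay between the limits.

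POX1 was the 1 member with more than a single probe set, and its 4 probe sets did not give the same picture. The probe set used here averaged 309 ± 134, and the others averaged 259 ± 134, 112 ± 20.8 and 93.9 ± 52.4. The first of these others, with 109, 370 and 297 in cultures 1, 2 and 3, followed the same order of cultures as the one used. The second read 88.4, 118 and 128 in cultures 1, 2 and 3, so that as deposited it differed least between cultures. At a common median its range was the widest of the 4, at 0.79 (log2), against 0.43 for the probe set used. With arrays at a common median, the deviation of culture 2 from the mean over cultures (log2) was -0.03 for the probe set used, and 0.15, -0.44 and 0.28 for the others in the order above. The sign of POX1's deviation in culture 2 therefore depended on the probe set. The one used and the second of the others, which have plain names (no letter before the ending _at), were both below 0. The one used was taken for its higher mean, so its rank among the probe sets is partly by choice. Each of the 41 other members rests on 1 probe set, for which no such comparison could be made.

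Enzymes auxiliary to the core pathway ranged from bright to dim. SPS19, a dienoyl-CoA reductase needed for unsaturated fatty acids, read 544, 1219 and 1005 in cultures 1, 2 and 3, and the thioesterase gene TES1 read 1113, 1792 and 1898. Both were bright in their mean (923 ± 345 and 1601 ± 426). ECI1, the enoyl-CoA isomerase gene, read 193, 568 and 284 in cultures 1, 2 and 3 and was highest in culture 2. DCI1, a paralogue of ECI1, read 18.6, 25.9 and 25.7 in cultures 1, 2 and 3. All 3 of these signals were under 26.3, the highest sense-strand control over the arrays, where 12.1% of all genes lay in every culture. On their own arrays these controls reached 23.2, 26.3 and 24.2 in cultures 1, 2 and 3, so that in culture 3 DCI1 was above them.

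The 6 members for activation of fatty acids and for their entry into peroxisomes all lay between the limits. This does not extend to the further list described below, where some genes for activation or uptake of fatty acids were dim. The acyl-CoA synthetase genes FAA1, FAA2 and FAA4 had means of 273 ± 114, 343 ± 134 and 360.4 ± 134, the enzyme encoded by FAA2 being the peroxisomal one that activates medium-chain fatty acids. PXA1 and PXA2, which together encode the transporter for long-chain acyl-CoA, read 152 ± 64.8 and 105 ± 41.6. ANT1, the peroxisomal adenine nucleotide transporter gene that supplies ATP for this activation, read 121, 298 and 215 in cultures 1, 2 and 3 (mean 211 ± 88.6). These 6 genes also kept close to the array-wide differences: with arrays at a common median, their ranges between the highest and the lowest culture (log2) were 0.17 for FAA1, 0.20 for FAA2, 0.26 for FAA4, 0.11 for PXA1, 0.23 for PXA2 and 0.10 for ANT1, against a median of 0.34 over the 3959 genes that were not dim.

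The lipase gene LPX1 and YAT1, a carnitine acetyltransferase gene, had the widest ranges of the members that were not dim once arrays were at a common median. CAT2, another carnitine acetyltransferase gene, whose product serves peroxisomes and mitochondria, read 333, 866 and 621 in cultures 1, 2 and 3, which followed the arrays. YAT1 (YAR035W), the transferase of the mitochondrial outer membrane, read 269, 288 and 559 in cultures 1, 2 and 3, so that culture 2 lay next to culture 1 although its array was the brightest. LPX1 (YOR084W), a lipase of the peroxisomal matrix, read 758, 470.0 and 1106 in cultures 1, 2 and 3, with its lowest signal on the brightest array. Of 3959 genes that were not dim, 0.834% had their lowest deposited signal in culture 2, and among the members LPX1 was the 1 that did.

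PIP2 and OAF1, which encode the oleate-responsive transcription factors, had moderate signals and a narrow spread. PIP2 read 45.0, 120.1 and 95.1 in cultures 1, 2 and 3, and OAF1 read 65.2, 154 and 106. At a common median their ranges were 0.28 and 0.13 (log2), both below that of the median gene.

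Among the peroxins, those that act on peroxisome number and on the membrane differed widely in signal. PEX11, which promotes peroxisome division, read 756, 1631 and 1134 in cultures 1, 2 and 3 and was the brightest of the list (1174 ± 439). PEX25, of the same protein family, read 138, 345 and 261, while PEX27, the remaining member of that family, was dim at 39.2 ± 15.8. PEX3 and PEX19, both needed for the insertion of peroxisomal membrane proteins, averaged 179 ± 74.5 and 45.5 ± 15.4, the second being dim and close to the limit. PEX28, PEX29, PEX30, PEX31 and PEX32, which control peroxisome size and number, all had low signals, between 38.6 ± 16.7 for PEX32 and 65.3 ± 17.0 for PEX29. PEX30 and PEX32 were dim, and PEX31 (51.6 ± 30.6) was the nearest to the limit on its other side.

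Of 4 receptor, 4 docking, 2 ubiquitin ligase and 4 receptor recycling genes of the import machinery, 1 was bright and 4 were dim. The shares over all genes are 10% bright and 30% dim, and these counts lie near them. Of the receptors, PEX5, whose product binds the C-terminal targeting signal, read 46.1, 99.9 and 76.5 in cultures 1, 2 and 3, and PEX7, whose product binds the N-terminal signal, read 57.4, 119 and 112. The paralogous co-receptors of Pex7 were unlike in signal, PEX21 reading 78.4, 224 and 125 in cultures 1, 2 and 3 and PEX18 reading 8.85, 15.5 and 16.7, all 3 under the highest sense-strand control of their own array. In the docking complex PEX14 averaged 267 ± 98.4, PEX13 76.9 ± 30.1 and PEX17 39.6 ± 23.5, and PEX8, which acts on the matrix side of the membrane, averaged 164 ± 72.9. The ubiquitin ligase genes PEX2 and PEX10 averaged 590.4 ± 260.5 and 73.4 ± 25.3, the first lying on the bright limit. PEX6, an ATPase gene, read 262 ± 104 and its membrane anchor gene PEX15 71.3 ± 34.5, whereas the ubiquitin-conjugating enzyme gene PEX4 and its anchor gene PEX22 were both dim, at 28.2 ± 15.0 and 25.5 ± 13.3. A low signal says that these probe sets were weak and does not show that the transcripts were scarce. Of the 24 peroxins, 5 had a signal at or under 26.3 in at least 1 culture, where 28.3% of all genes did, and 1 (PEX18) in all 3, where 12.1% of all genes did.

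Differences between cultures were then read with the arrays at a common median, as deviations of each gene's log2 signal from its own mean over the 3 cultures. Most members followed the array-wide differences. As deposited, 12 of 15 oxidation genes and 15 of 16 peroxins that were not dim spanned over 2-fold between cultures, where 75.5% of all genes that were not dim did. At a common median, LPX1 and YAT1 were the members that still did, which is 2 of 15 oxidation genes, no peroxin and neither regulator, beside 3.49% of all genes that were not dim. The median range (log2) was 0.23 for oxidation genes, 0.28 for peroxins and 0.34 for all genes that were not dim.

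**Figure D2:**
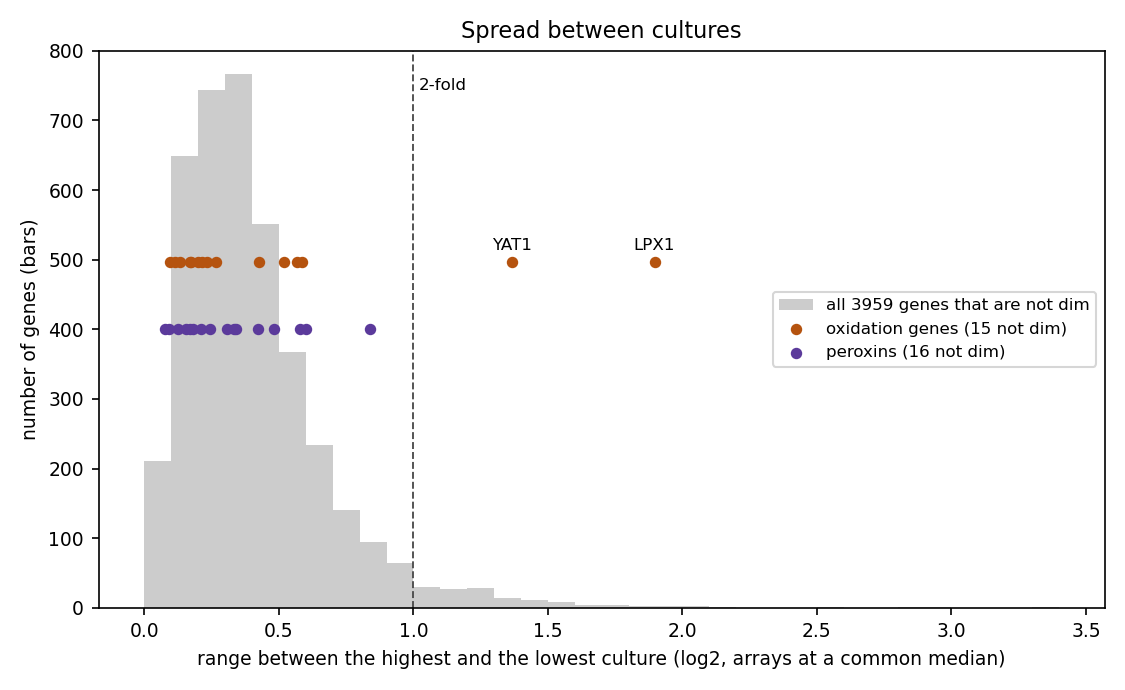
Number of genes by their range between the highest and the lowest culture (log2, arrays at a common median), for all 3959 genes that are not dim (bars), with the 15 oxidation genes and the 16 peroxins that are not dim as points whose height has no meaning. Beyond the dashed line at 2-fold lie YAT1 at 1.37 and LPX1 at 1.90 and no peroxin.

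At a common median the deviations of LPX1 were 0.72, -1.18 and 0.47 in cultures 1, 2 and 3, a 3.72-fold range. Those of YAT1 were 0.28, -0.83 and 0.54, a 2.58-fold range. Both were more than 2-fold lower in culture 2 than in each other culture, which held for 1.09% of all genes that were not dim, a criterion set after the values of LPX1 and YAT1 were seen. The rank of a gene within its own array needs no scaling, and LPX1 stood at percentile 95.3 of genes in culture 1, 83.2 in culture 2 and 94.8 in culture 3. For YAT1 these percentiles were 86.6, 73.2 and 89.1. Relative to FOX2 on the same array, the log2 signal of LPX1 was 1.68 lower in culture 2 than in culture 1 and 1.45 lower than in culture 3. Relative to CAT2, that of YAT1 was 1.28 and 1.44 lower, and relative to FOX2 it was 0.89 and 1.17 lower, so that the gap to culture 1 was under 2-fold against FOX2.

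These differences rest on culture 2. Without it the range (log2) was 0.26 for LPX1 and 0.25 for YAT1, and no member differed by more than 2-fold. Without culture 1 the ranges were 1.65 and 1.37, and without culture 3 they were 1.90 and 1.11. LPX1 remained lowest in culture 2 as deposited and with quantile normalization, cyclic loess or scaling to the hybridization controls. For YAT1 culture 2 was lowest in the last 3 of these settings and culture 1 was lowest as deposited. The criterion of over 2-fold below each other culture depended on the scaling. As deposited neither gene met it, LPX1 being 0.69 (log2) lower in culture 2 than in culture 1 and YAT1 being higher in culture 2 than in culture 1. Scaled to the hybridization controls LPX1 met it, at 1.04 below culture 1, and YAT1 did not, at 0.25 below. With quantile normalization and cyclic loess both met it, YAT1 at 1.06 and 1.11 below culture 1, and with log2(signal + 16) YAT1 missed it at 0.97. Fewer cells with a transcript and less of it per cell cannot be told apart in RNA of a whole culture.

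**Figure D3:**
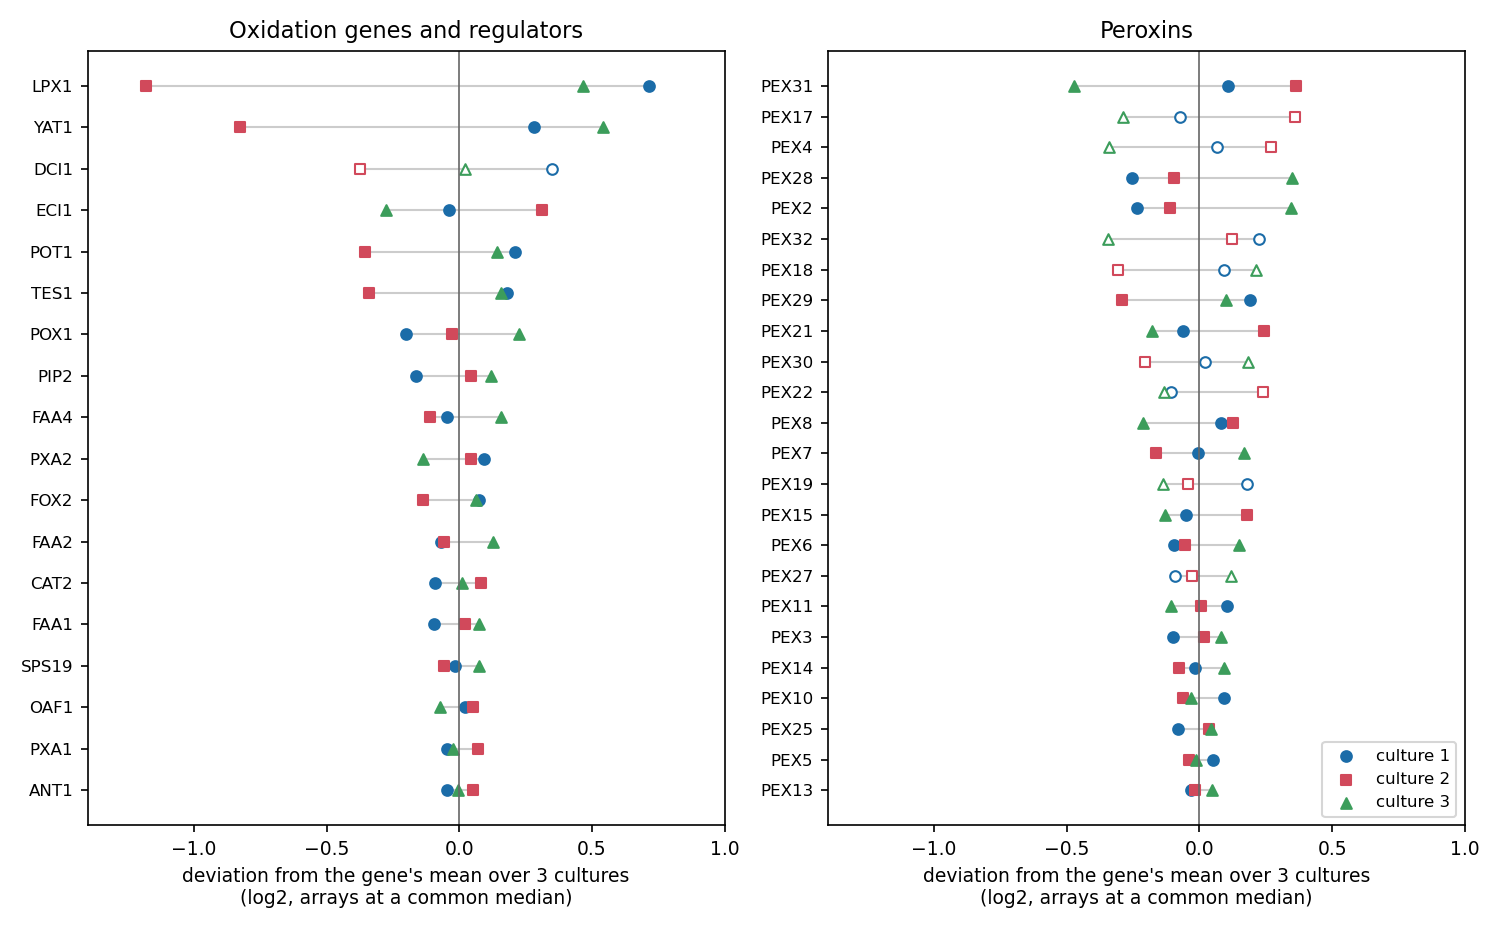
Deviation of each member's log2 signal from its own mean over the 3 cultures, with arrays at a common median, for oxidation genes and regulators on the left and peroxins on the right, each ordered by range with the widest at the top. Open symbols mark the 9 dim members. LPX1 (-1.18) and YAT1 (-0.83) lie far to the left in culture 2, and the widest peroxin is PEX31, with a range of 0.84.

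POT1 and TES1, both bright, had a smaller difference of the same direction with arrays at a common median. Culture 2 was also lowest for both with quantile normalization and cyclic loess. Culture 1 was lowest for both as deposited and scaled to the hybridization controls. The deviations that follow are those at a common median. POT1 deviated by 0.21, -0.35 and 0.14 in cultures 1, 2 and 3 and TES1 by 0.18, -0.34 and 0.16, and the log2 ratio of TES1 to POT1 within an array was 0.73, 0.78 and 0.77, so that they moved together. FOX2 deviated by -0.14 in culture 2, SPS19 by -0.06 and CAT2 by 0.08. Over these 5 bright oxidation genes, without LPX1, the median deviation in culture 2 was -0.14, with 4 of 5 below 0, and with LPX1 it was -0.24, where the 566 bright genes of the whole set had a median of -0.04, with 59.2% below 0. Over the 9 oxidation genes between the limits it was 0.02, as over all 3393 genes in that range. The genes whose ratios are given were picked after their values were seen, and the part of signal strength in these deviations was not tested.

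ECI1 ran the other way, with -0.04, 0.31 and -0.27 in cultures 1, 2 and 3. Its log2 ratio to SPS19 within an array was -1.50, -1.10 and -1.82, which is highest in culture 2. Neither POT1, TES1 nor ECI1 passed 2-fold between any cultures at a common median, their ranges being 1.48-fold, 1.43-fold and 1.50-fold.

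**Figure D4:**
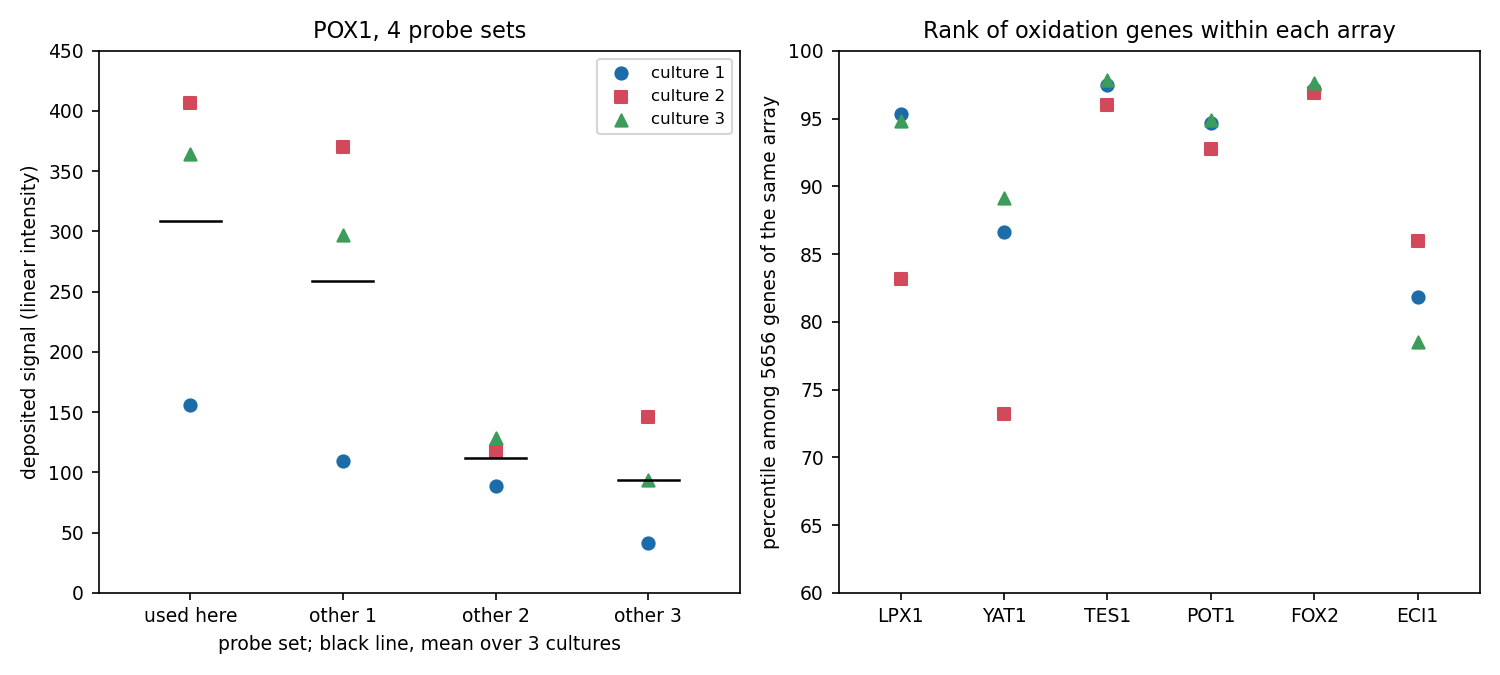
Left, deposited signal of the 4 probe sets of POX1 in each culture (points, linear axis), with the mean over cultures as a black line. The 1 used here is on the far left. The second of the others differs least between cultures as deposited, and at a common median its range is the widest of the 4 (0.79 log2). Right, percentile of 6 oxidation genes among the 5656 genes of the same array, on an axis that starts at 60; LPX1 and YAT1 drop to 83.2 and 73.2 in culture 2, and ECI1 peaks there at 85.9.

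Among peroxins the departures from the arrays were small and had no common direction. PEX31 had the widest range of those that were not dim (0.84 log2, 1.79-fold), with deviations of 0.11, 0.37 and -0.47 in cultures 1, 2 and 3. Its signals of 31.5 and 36.5 in cultures 1 and 3 lay not far above the sense-strand controls. PEX28 and PEX2 were highest in culture 3, with deviations of 0.35 and 0.34, and PEX21 was highest in culture 2, with a deviation of 0.24. Narrow spreads were found for PEX13 (0.08), PEX5 (0.09), PEX25 (0.12), PEX10 (0.16) and PEX14 (0.17). The docking partners PEX13 and PEX14 thus both ranged over less than the median gene, and PEX8 had a range of 0.34. PEX17, dim and so outside this comparison, deviated by 0.36 in culture 2, and by 0.16 with log2(signal + 16). Its signal of 21.2 in culture 1 was under the highest sense-strand control of that array (23.2).

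The lists as a whole were described by their medians. The median deviation in cultures 1, 2 and 3 was -0.04, -0.06 and 0.08 over the 15 oxidation genes that were not dim and -0.02, -0.03 and 0.05 over the 16 such peroxins, beside 0.01 in each culture over all genes that were not dim. The oxidation list minus the peroxin list came to -0.02, -0.03 and 0.03.

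Further genes of the pathway that are not among the 42 were read from a further list, of which 30 were analysed here. Of the 30, 6 were bright and 8 were dim, where by construction 10% and 30% of all genes are. The highest was ACB1, the acyl-CoA binding protein gene, at 2496 ± 884, and the lowest was INP2, a gene for peroxisome inheritance, at 18.3 ± 4.40. CTA1, the peroxisomal catalase gene whose product removes the hydrogen peroxide made by Pox1, was bright at 1255 ± 392, and ADR1, a transcription factor gene of the pathway, read 100.0 ± 34.3. Of the 22 above the dim limit, MLS1 alone (4.55%) spanned over 2-fold between cultures at a common median, beside 3.49% of all genes that were not dim. MLS1, the malate synthase gene of the glyoxylate cycle, read 246, 199 and 273 in cultures 1, 2 and 3, which made deviations of 0.72, -0.79 and 0.08. Like LPX1 it had its lowest deposited signal on the brightest array, and it was the 1 gene of the 22 that did. Its range (log2) was 1.51 at a common median and 0.46 as deposited. At a common median it was 0.65 without culture 2 and 0.87 without culture 1, against 1.52 without culture 3, so it passed 2-fold with both cultures 1 and 2 in place and not otherwise. The narrowest range was that of PCD1, a peroxisomal nudix hydrolase gene, at 0.09.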

How the data were processed

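Total RNA of 3 chemostat cultures was labelled with biotin and hybridized to 1 Affymetrix array each, per the labels' protocols. The deposited values are probe set intensities on a linear scale. The submitters' processing notes name GCOS. The sources used here do not give the probe summary, the background correction or the scaling. No 2 arrays held identical values. The labels call the cultures independent, and the number of arrays (n = 3) limits the precision.

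Of 9335 probe sets, 60 were controls and 6504 had 1 gene, all matched to a RefSeq table (assembly R64) used for names alone. For each of 5656 genes 1 probe set was used, that with a plain name, or the one with the higher mean where several qualified. All 42 members had such a probe set. Signals under 1 were set to 1 before log2 was taken. Comparisons between cultures used the 3959 genes that were not dim, which removed 9 members. Arrays were then shifted so that the median deviation of these genes from their own means was equal in each culture. The rule for members uses symbols alone, but the choice of this gene group, the lists and the limits was made with earlier results of these data known, and all members may be named by rule. From the further list the rule names the genes with the highest and lowest mean, the widest and narrowest range, CTA1 and ADR1.

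Alternatives were other limits, the mean over probe sets, log2(signal + 16), no common median, cyclic loess and quantile normalization (limma 3.58.1 in R 4.3.3), leaving out each culture and, chosen after seeing the data, scaling to 9 hybridization controls. Other steps used Python 3.11.15, numpy 2.4.6 and pandas 2.3.3. Of these, the centring of arrays and the count of genes over 2-fold were tested on simulated data. The simulation held large increases in a single culture, and no decreases or dim genes.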

Additional observations from a re-analysis of the deposited data

How the results depend on the processing

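No paired analysis was possible because there is 1 group. Of 110 comparisons of 12 results with an alternative, 85 stayed within the spread between cultures or within 1.5 times the count. For list medians this spread was the median SD of the list's genes, 0.12 (log2) for oxidation genes and 0.15 for peroxins. Medians close to 0 stay within it even where their sign turns, so the count of 85 says little about them. Among 60 such comparisons of the list medians, which are all close to 0 at a common median, 8 changed sign. Those of culture 2, at -0.06 for oxidation genes and -0.03 for peroxins, were above 0 for both lists as deposited and on the hybridization control scale (values below), and for peroxins also with dim under the 50th percentile (0.01) and without culture 3 (0.02). In culture 1 the oxidation median was 0.02 without culture 3, against -0.04, and the peroxin median 0.02 with log2(signal + 16), against -0.02. Counts of bright and dim genes follow the limits. With dim under the 10th and bright over the 95th percentile, 2 oxidation genes and 1 peroxin were bright, and 0 and 1 were dim. With the 50th and 75th, 12 and 5 were bright, and 1 and 15 were dim. Bright peroxins numbered 1 at a common median before averaging, and between 1 and 2 with a culture left out (1 without culture 3, PEX2 lying on the limit). Without a common median the array-wide differences enter. As deposited 12 oxidation genes and 15 peroxins differed by more than 2-fold, where 75.5% of all genes that were not dim did. The median deviations in cultures 1, 2 and 3 were -0.71, 0.48 and 0.20 for oxidation genes and -0.69, 0.51 and 0.17 for peroxins. All genes that were not dim had -0.66, 0.55 and 0.13. Scaled to the hybridization controls 11 oxidation genes and 11 peroxins differed by more than 2-fold. The share of all genes is not given on that scale, so these counts say nothing particular to the lists. The median deviations were then -0.66, 0.19 and 0.45 for oxidation genes and -0.64, 0.22 and 0.42 for peroxins. All genes that were not dim had -0.61, 0.25 and 0.38. Relative to all genes the lists lay within 0.07 of them in both settings. Each of these settings shifts a whole array by a constant, so this distance is the same by construction and is no check. With a culture left out, between 0 and 2 oxidation genes differed by more than 2-fold at a common median (0 without culture 2). The share of all genes is not given for these settings either. With 3 arrays and 1 probe set for most genes, differences under 2-fold in a single gene are weakly supported.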
